A study of Mus musculus with 4 samples.

Results

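The genes described here encode the non-collagen proteins of the extracellular matrix: laminins and other basement membrane proteins, small leucine-rich and hyaluronan-binding proteoglycans, elastic fiber proteins, adhesive glycoproteins, and the enzymes and chaperone that act on collagen. They were chosen by name, as a list of 59 mouse gene symbols, and 53 of these had a row in the deposited table of 24689 genes; Lama1, Lama4, Ncan, Fbn2, Fbln1 and Mfap4 were not analysed here. RNA was sequenced from 2 libraries of HT-22 cells induced to express Pja2 and from 2 libraries of control HT-22 cells. The sources call the controls uninduced in one label and wild type in another, the induced samples carry the tag Pja2-pb, and neither the means of induction nor the number of clones is stated, so differences between lines and effects of induction cannot be told apart. HT-22 is an immortalized mouse cell line derived from hippocampus, and Pja2 encodes a RING-type ubiquitin ligase known for degrading the regulatory subunits of the cyclic AMP-dependent kinase. All 4 samples carry the same passage range. Nothing in the labels says whether the replicates were separate cultures, and the p-values therefore rest on the spread between these libraries, which may be technical.

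A basement membrane is a thin sheet in which laminin, a trimer of an alpha, a beta and a gamma chain, is tied to a collagen IV network by nidogens and the heparan sulfate proteoglycans perlecan and agrin. Interstitial matrix is built on collagen fibrils, whose growth is shaped by small leucine-rich proteoglycans, and on fibronectin, fibrillin and hyaluronan-bound versican. Hippocampal neurons are surrounded by a matrix rich in hyaluronan and its proteoglycans, while fibrillar matrix in the brain is known mainly from vessels and meninges.

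Reads assigned to genes numbered 30080376 and 35262653 in the induced libraries and 25787452 and 31010351 in the controls. Values are normalized reads, meaning the deposited log2 values with the log and their pseudocount of 1 undone, and 1 read was worth 0.927 to 1.26 normalized reads. Pja2 itself had 54830 and 54244 normalized reads in induced cells, against 6167 and 5881 in controls. The labels call the cells hippocampal neurons. Of 11 neuronal markers, Map2, Rbfox3, Snap25 and Nefm were not analysed here, and Eno2 and Tubb3 had a mean of at least 1 CPM (reads scaled by library total). Eno2 had 3879 and 3407 normalized reads in induced cells and 3965 and 4107 in controls, and Tubb3 had 711 and 728 in induced cells and 622.5 and 574 in controls. The other 5 with a row were low: Nefl, Dcx, Stmn2, Syp and Gap43 had at most 6.52, 3.77, 16.4, 23.9 and 44.2 normalized reads in any library. All 10 fibroblast and mesenchymal markers passed that minimum, with summed values of 451046 and 446609.5 in induced cells and 499404 and 452234 in controls. Col1a2 held the largest part of these sums, and with S100a4, Col1a1, Col3a1 and Vim most of them, so the sums say little about the other markers. Summed values in induced cells and controls were 3445 and 4271 against 3368 and 3022 for the astrocyte markers, 109 and 89.0 against 39.0 and 73.7 for the oligodendrocyte markers, and 245 and 213 against 260 and 334 for the epithelial markers. Slc1a3 held most of the astrocyte sum, with 3426 and 4237 in induced cells and 3302 and 2956 in controls. Aldh1l1 had 5.44 and 14.8 in induced cells and 57.8 and 65.3 in controls (log2 fold change -2.63, adjusted p = 0.0618 by limma). For Aldh1l1 the adjusted p was 0.0446 by limma voom, but 0.0693 by limma after quantile normalization, 0.0696 with a replicate block and 0.125 with no filter. In fits without 1 library its log2 fold change lay between -3.28 and -1.98. The endothelial markers summed to 22.8 and 15.8 normalized reads in induced cells and 31.4 and 25.3 in controls. The immune markers summed to 197 and 233 in induced cells and 153 and 140 in controls. Among the mesenchymal markers Col3a1, a fibrillar collagen gene, fell to 47479 and 48561 in induced cells, against 81869 and 68553 in controls, and the other 9 did not pass the test. Whether a change in cell state or makeup moved with the matrix genes was not tested, and in these bulk libraries fewer cells of a kind and less RNA per cell cannot be told apart.

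Matrix genes changed in both directions. Of the 53 genes with a row, 41 had a mean of at least 1 CPM and were tested; 5 rose (Bgn, Tnxb, Fbln2, Vcan and Nid1) and 8 fell (Nid2, Dpt, Prelp, Ogn, Lama2, Dcn, Mfap5 and Tnc). Among all 13276 genes tested, 2.08% rose and 1.34% fell, 3.42% in all, against 31.7% of the 41 matrix genes. The matrix genes were chosen with earlier results of these data known, so these shares are a description. The test was limma on the log2 values with Benjamini-Hochberg adjustment over the 13276 genes and a threshold of 0.05. Each adjusted p below is from it unless another fit is named. A log2 fold change is induced minus control, on a scale with a pseudocount of 1 that understates the change of genes with few reads, and a fold is the ratio of mean normalized reads. The median log2 fold change of the 41 genes was -0.03, with 19 above 0, and that of all tested genes was 0.00, with 50.4% above 0. Among the called genes the falls were the larger changes: 6 of the 8 had a log2 fold change beyond -1, while the rises lay between 0.41 and 0.75. The SE of these 6 ran from 0.24 to 0.59, against 0.06 to 0.09 for the rises. With such SE only a large change could pass. In 31 of the 41 genes both induced libraries lay on the same side of both controls, as did 51.3% of all tested genes. Without induced replicate 1 or 2, 3 and 2 genes rose, 5 fell without induced replicate 1, and 4 fell without control replicate 1, in fits that have fewer degrees of freedom. With no filter on low values 3 rose and 3 fell, and with no trended prior 0 rose and 3 fell (Nid2, Lama2 and Dpt). Nid2 and Dpt were under 1 CPM in both induced libraries and reached the mean of 1 CPM through the controls alone. At such induced levels a gene can enter the test only with higher controls.

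**Figure D1:**
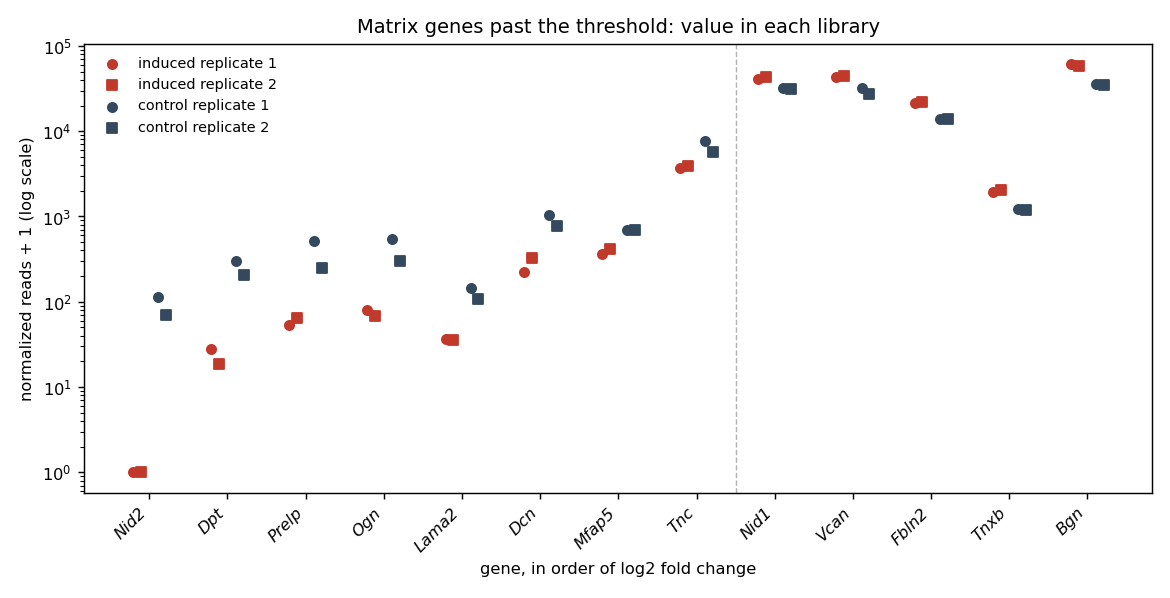
Normalized reads plus 1 (log scale) of the 13 matrix genes past the threshold in each library, with induced libraries in red left of the controls in dark blue, circles for replicate 1 and squares for replicate 2. In all 13 genes the groups do not overlap; the 8 genes that fell stand left of the dashed line and, but for Tnc, have control means of at most 907 normalized reads, while 4 of the 5 that rose have control means of 13866 or more.

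**Figure D2:**
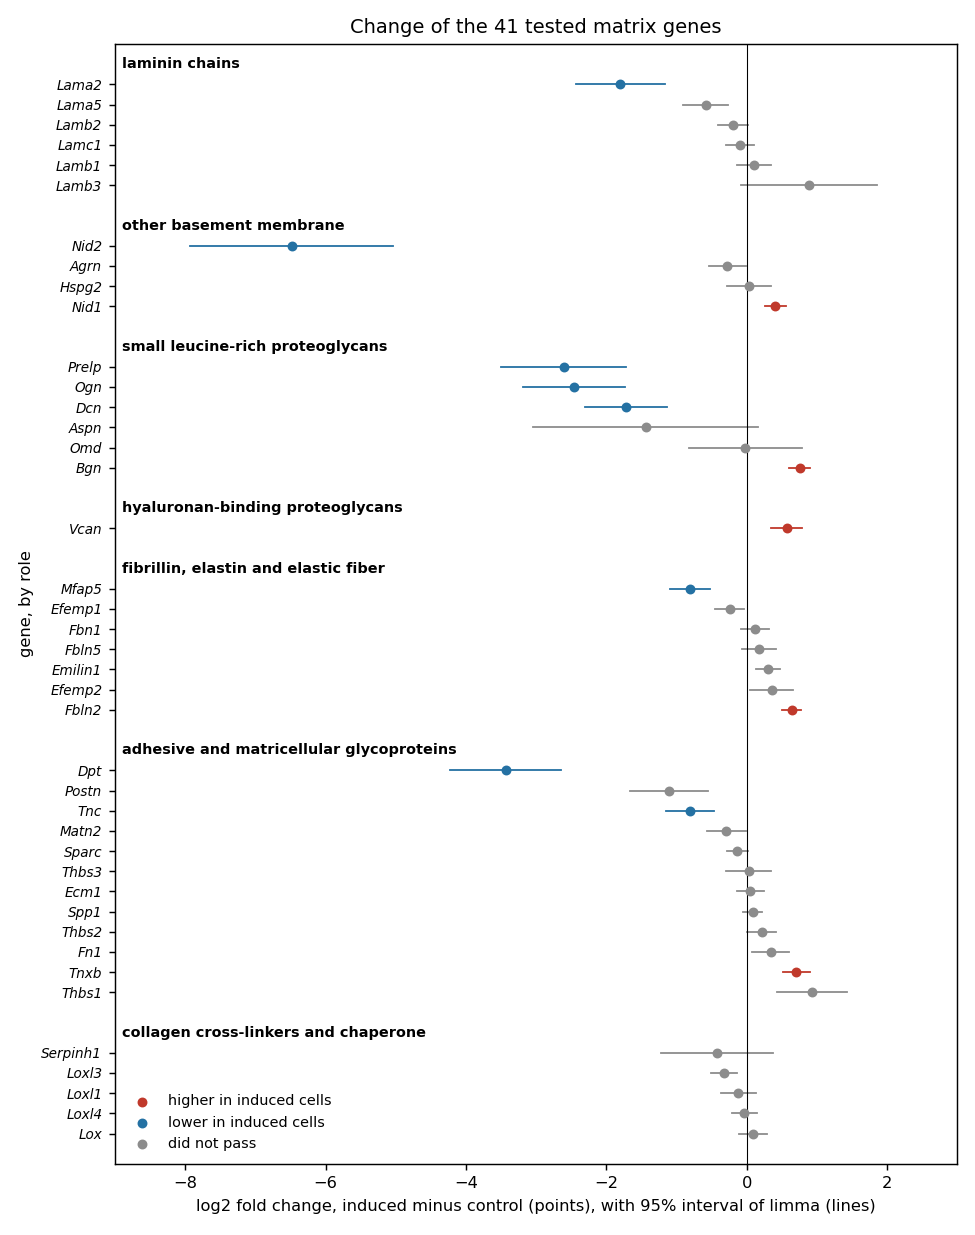
Log2 fold change (points) of the 41 tested matrix genes by role, with the 95% interval of limma (lines); red marks genes that rose, blue genes that fell and grey those that did not pass. The small leucine-rich proteoglycans span from -2.61 for Prelp to 0.75 for Bgn, all 5 cross-linker genes are grey, and the position of Nid2, with no reads in induced cells, depends on the pseudocount.

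Of the 6 tested laminin genes, Lama2 fell and the other 5 did not pass. Lama2, which encodes the alpha chain of muscle and nerve sheath basement membranes, had 35.9 and 34.3 normalized reads in induced cells, against 145 and 107 in controls. Its mean was 3.59-fold lower (log2 fold change -1.80, SE 0.26, adjusted p = 0.0280). Its level was low, at 0.0657 RPKM (reads scaled by library total and by exon length in kilobases) in induced cells and 0.237 RPKM in controls. Leaving out any of the 4 libraries ended this call, with adjusted p of 0.0564 and 0.0675 without induced replicates 1 and 2 and 0.0962 and 0.0522 without control replicates 1 and 2, and its exons overlap those of Gm48084.

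Lama5, the alpha chain found in most mature epithelial and vascular basement membranes, had 853 and 866 normalized reads in induced cells and 1459 and 1145 in controls, with no overlap between the groups (log2 fold change -0.59, adjusted p = 0.0803). In the fits without 1 library its log2 fold change ran from -0.76 to -0.41. Among these fits Lama5 passed only without control replicate 2, the control nearer the induced libraries. Lamc1, the gamma chain that most laminins share, had 19312 and 20459 in induced cells and 22730 and 19983 in controls (log2 fold change -0.10, 95% interval -0.30 to 0.10). Lamb2 had 6337 and 6964 in induced cells and 8108 and 7181 in controls (log2 fold change -0.20, interval -0.41 to 0.01), and Lamb1 had 5840 and 6468 in induced cells and 6193 and 5276 in controls (0.10, interval -0.14 to 0.35). The groups overlapped for Lamc1 and Lamb1. Lamb3 and Lama3, chains of the epidermal laminin, were low: Lamb3 had 76.1 and 53.8 normalized reads in induced cells and 25.1 and 46.3 in controls (log2 fold change 0.89, adjusted p = 0.295), and Lama3, under the filter, had 54 reads in induced cells and 37 in controls. Per exon length Lamc1 was the highest laminin gene with a row in both groups, at 73.5 RPKM in induced cells and 79.4 in controls, followed by Lamb2 (33.4 and 38.6) and Lamb1 (19.0 and 17.8), while the highest alpha chain with a row, Lama5, reached 2.31 and 3.51 RPKM. Lama5 stood at 0.0321 and 0.0308 times the level of Lamc1 in induced libraries and 0.0466 and 0.0416 times in controls. The ratio of Lama5 to Lama2 was 34.1 and 36.2 in induced libraries and 14.5 and 15.3 in controls.

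Of the nidogen genes, Nid1 rose and Nid2 fell. Nid2 had 0 reads in both induced libraries, against 112 and 69.5 normalized reads in controls (adjusted p = 0.00918 by limma). With each induced library set at 3 reads, its mean was at least 30.0-fold lower. Nid2 reached the filter through the controls alone, so it could be called only as lower. Its induced libraries had no spread, so this p rests on the spread of the controls and the trended prior. Its log2 fold change was -6.48 with a pseudocount of 1 and -3.59 with a pseudocount of 8. Nid1, at 41245 and 43140 normalized reads in induced cells and 32201 and 31461 in controls, rose 1.33-fold (log2 fold change 0.41, SE 0.06, adjusted p = 0.0306). Per exon length Nid1 was at 214 and 337 times the level of Nid2 in the controls, and in induced cells Nid1 was the only one of the pair with a read. The Nid2 call ended without control replicate 1 (adjusted p = 0.0582), and that of Nid1 without any of the libraries (0.0953 and 0.162 without induced replicates 1 and 2, 0.0641 and 0.0726 without control replicates 1 and 2). Exons of Nid2 overlap those of Rtraf, which had 2886 and 2597 normalized reads in induced cells and 3070 and 3305 in controls, and the library kit does not mark the strand. Exons of Nid1 overlap Gm48682.

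Perlecan (Hspg2) and agrin (Agrn) did not pass. Hspg2 had 20407 and 25931 normalized reads in induced cells and 24000 and 21212 in controls (log2 fold change 0.03, interval -0.29 to 0.34), and the groups overlapped. Agrn had 6224 and 7157 in induced cells and 8750 and 7477 in controls (log2 fold change -0.28, adjusted p = 0.240), both induced libraries lying below both controls. Npnt, an integrin ligand of kidney basement membrane, had 6 reads in 1 induced library and none in the other 3. Of 11 further basement membrane genes with a row, 7 were tested and 0 passed limma's test or limma voom, with 2 at an unadjusted p under 0.05 by limma (median log2 fold change 0.19, 6 of 7 above 0). Under the filter and so not tested, Smoc2 had 77 reads in induced cells and 11 in controls. Lamc3, Fras1 and Frem1, also under it, had at most 6 reads in either group.

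All 9 small leucine-rich proteoglycan genes had a row and 6 were tested: Prelp, Ogn and Dcn fell, Bgn rose, and Aspn and Omd did not pass. Their proteins bind collagen fibrils, and decorin (Dcn) and biglycan (Bgn) also bind growth factors such as TGF-beta. The 250 bases before the RefSeq start of Ogn and Prelp, which fell, and of Bgn, which rose, are printed to show family members with opposite changes (RefSeq, GRCm38.p6). Capitals mark matches, on either strand, to 4 motifs: the TATA box (TATAAA), the GC box (GGGCGG), the CCAAT box (CCAAT) and the AP-1 element (TGANTCA).
Ogn (chr13:49607765-49608014, plus strand): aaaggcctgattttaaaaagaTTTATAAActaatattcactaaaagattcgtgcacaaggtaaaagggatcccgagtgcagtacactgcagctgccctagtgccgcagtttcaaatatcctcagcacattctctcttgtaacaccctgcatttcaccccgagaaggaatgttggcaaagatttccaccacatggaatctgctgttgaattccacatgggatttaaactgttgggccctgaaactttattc
Prelp (chr1:133921402-133921651, minus strand): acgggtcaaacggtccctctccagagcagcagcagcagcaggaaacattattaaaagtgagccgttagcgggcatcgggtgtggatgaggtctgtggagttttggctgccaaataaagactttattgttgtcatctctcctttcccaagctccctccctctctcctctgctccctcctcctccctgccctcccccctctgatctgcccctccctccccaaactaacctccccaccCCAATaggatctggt
Bgn (chrX:73483351-73483600, plus strand): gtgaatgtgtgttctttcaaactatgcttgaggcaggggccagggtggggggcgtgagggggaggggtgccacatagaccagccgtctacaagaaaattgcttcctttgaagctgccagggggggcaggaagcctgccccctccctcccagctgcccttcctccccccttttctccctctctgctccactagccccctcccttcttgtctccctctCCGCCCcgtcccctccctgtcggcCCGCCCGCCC

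Distances are from the first base of a match to the start. The Bgn window held 3 GGGCGG matches, at 34, 10 and 6 bases before the start, of which the last 2 overlap. The Ogn window held 2 overlapping TATAAA matches at 229 and 227 bases, and the Prelp window held 1 CCAAT match at 15 bases. The bases after the RefSeq start lay in a GENCODE transcript of the gene for Prelp but not for Ogn and Bgn. These are matches of letters and not shown sites of binding.

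Bgn had 60720 and 58521 normalized reads in induced cells, against 35412 and 35262 in controls, and replicates differed little in either group. It rose 1.69-fold (log2 fold change 0.75, SE 0.06, adjusted p = 0.00698), and all 4 fits without a library kept the call. Prelp, a heparin- and collagen-binding anchor of basement membranes, had 52.2 and 64.0 normalized reads in induced cells, against 516 and 247 in controls. It fell by 2.61 on the log2 scale (SE 0.36, adjusted p = 0.0260), a 6.57-fold lower mean. Ogn, the gene of osteoglycin, had 78.3 and 67.7 in induced cells, against 542 and 303 in controls, and fell by 2.46 (SE 0.29, adjusted p = 0.0185). Both were much higher in control replicate 1 than in control replicate 2, by 2.08 and 1.79 times, yet the lower control stood well above both induced libraries. Their calls held without any 1 library, and without control replicate 1 the log2 fold changes were -2.08 and -2.04. Exons of Prelp overlap Gm15851. In all, exons of 24 of the 41 tested genes overlap no other gene; beside 6 of the called genes, those of Fn1, Aspn, Thbs1, Thbs3, Fbn1, Efemp2, Matn2, Ecm1, Spp1, Lox and Loxl3 overlap one.

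Dcn had 222 and 329 normalized reads in induced cells, against 1049 and 765 in controls. It fell by 1.72 on the log2 scale (SE 0.24, adjusted p = 0.0259), and its call ended without control replicate 1 (log2 fold change -1.50, adjusted p = 0.0676). Bgn stood at 262 and 170 times the level of Dcn per exon length in induced libraries, and at 32.3 and 44.1 times in controls. Aspn, the gene of asporin, had 10.9 and 27.8 in induced cells and 81.7 and 29.5 in controls, so 1 control lay close to an induced library (log2 fold change -1.44, interval -3.05 to 0.16, adjusted p = 0.304). Omd, the gene of osteomodulin, had 43.5 and 64.0 in induced cells and 45.3 and 63.2 in controls, and the groups overlapped (log2 fold change -0.02, interval -0.82 to 0.78).

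Several of these genes are neighbours in the RefSeq annotation. Ecm2, Aspn, Omd and Ogn follow each other on chromosome 13, and within that row Ogn fell while Omd and Aspn did not pass and Ecm2 was under the filter (8 and 13 reads in induced and control cells). Cenpp, whose exons overlap Aspn, and Nol8, on the far side of Ogn, had log2 fold changes of 0.08 and 0.23 and did not pass (adjusted p = 0.844 and 0.321). Dcn lies beside Lum on chromosome 10, and Lum, the gene of lumican, had 3 reads in the induced libraries together and 16 in the controls. Prelp and Fmod share a stretch of chromosome 1, and Fmod, the gene of fibromodulin, had 0 reads in induced cells and 3 in controls. Btg2, an antiproliferative gene farther along that stretch, rose 2.02-fold, opposite to Prelp (log2 fold change 1.01, adjusted p = 0.0275), and its call ended without induced replicate 1 (0.0813) and without control replicate 2 (0.0659). Podn had 6 reads in either group, in 1 library each.

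**Figure D3:**
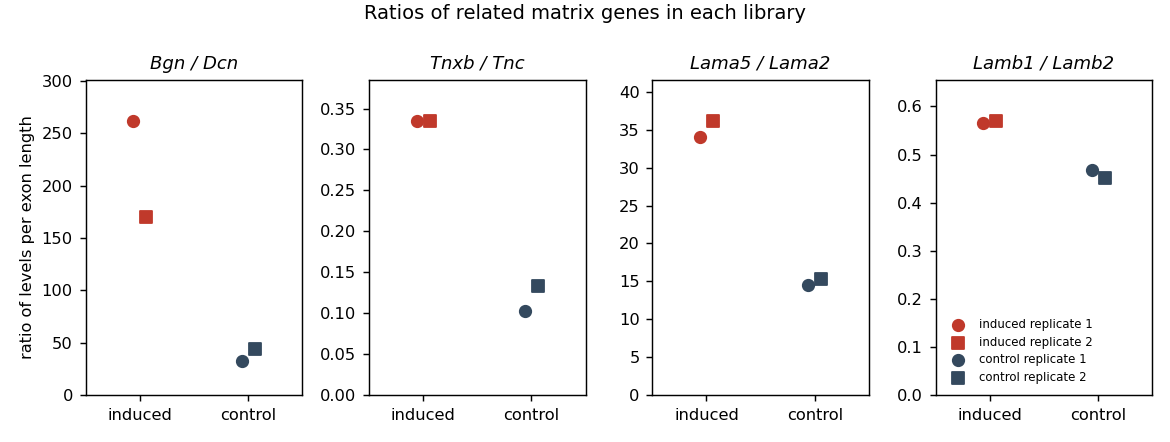
Ratio of levels per exon length within each library for pairs of related genes, induced libraries (red) left of controls (dark blue), circles for replicate 1 and squares for replicate 2. The Bgn to Dcn ratio is at 262 and 170 in induced libraries and 32.3 and 44.1 in controls, and the Lamb1 to Lamb2 ratio at 0.565 and 0.570 against 0.468 and 0.451.

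Versican was the 1 tested gene of the hyaluronan-binding proteoglycans. Vcan had 43226 and 43974 normalized reads in induced cells, against 31864 and 27080 in controls. It rose 1.48-fold (log2 fold change 0.57, SE 0.09, adjusted p = 0.0348), with both induced libraries well above the higher control. The call ended without induced replicates 1 and 2 (adjusted p = 0.0821 and 0.0995). The other 2 with a row were near 0: aggrecan (Acan) had 0 reads in induced cells and 1 in controls, and brevican (Bcan) had 10 reads in 1 induced library and none in the other 3.

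Of 7 tested genes of elastic fibers and their fibrillins and fibulins, Fbln2 rose, Mfap5 fell and 5 did not pass. Fbln2 encodes fibulin 2, which links fibrillin, fibronectin and basement membranes, and had 21373 and 21870 normalized reads in induced cells, against 13890 and 13841 in controls. It rose 1.56-fold (log2 fold change 0.64, SE 0.06, adjusted p = 0.00835), and the call was kept without any 1 library. Mfap5, a microfibril glycoprotein gene, had 364 and 416 in induced cells, against 685 and 687 in controls. It fell by 0.82 on the log2 scale (SE 0.12, adjusted p = 0.0272), and this call ended without induced replicate 1 or control replicate 1 or 2 (adjusted p = 0.0796, 0.0784 and 0.0742).

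Efemp1, the gene of fibulin 3, had the highest mean per exon length over the 4 libraries among the 41 tested genes, with 296 RPKM in induced cells and 354 in controls, beside 324 and 258 RPKM for Fn1. Its normalized reads were 19735 and 19759 in induced cells and 25126 and 21844 in controls (log2 fold change -0.25, adjusted p = 0.187). Efemp2, the gene of fibulin 4, which helps load lysyl oxidase onto elastin, had 4345 and 3737 in induced cells and 3497 and 2839 in controls (log2 fold change 0.35, adjusted p = 0.212). In both genes the groups stood apart without passing. Fbn1, the main fibrillin gene, averaged 9088 and 8393 normalized reads in induced and control cells (log2 fold change 0.12, interval -0.09 to 0.32), Fbln5 725 and 641, and Emilin1 2679 and 2180 (adjusted p = 0.502, 0.390 and 0.0878). Elastin itself (Eln) had 1 read in 1 induced library and none in the controls, and Mfap2 had 0 reads in induced cells and 3 in controls.

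Of 12 tested genes of adhesive and matricellular glycoproteins, Tnxb rose, Dpt and Tnc fell, and 9 did not pass. The tenascin genes thus changed in opposite directions, and the 250 bases before the RefSeq start of each are printed for that reason, with capitals as for the proteoglycans.
Tnc (chr4:64047016-64047265, minus strand): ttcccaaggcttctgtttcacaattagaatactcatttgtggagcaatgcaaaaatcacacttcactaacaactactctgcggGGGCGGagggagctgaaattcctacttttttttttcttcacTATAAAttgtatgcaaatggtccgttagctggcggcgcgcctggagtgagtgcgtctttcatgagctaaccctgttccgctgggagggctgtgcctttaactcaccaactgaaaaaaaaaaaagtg
Tnxb (chr17:34670285-34670534, plus strand): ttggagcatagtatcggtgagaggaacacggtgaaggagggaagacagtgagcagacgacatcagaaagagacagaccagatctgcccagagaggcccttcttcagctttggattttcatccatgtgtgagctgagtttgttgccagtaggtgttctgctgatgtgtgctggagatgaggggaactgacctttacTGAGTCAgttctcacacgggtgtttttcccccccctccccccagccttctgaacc

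The Tnc window, which belongs to the first of 2 listed starts, held a TATAAA match 126 bases and a GGGCGG match 167 bases before the start, and the Tnxb window held a TGANTCA match 55 bases before it. Tnc, a glycoprotein gene of developing and remodelled tissue, had 3655 and 3866 normalized reads in induced cells, against 7634 and 5715 in controls. It fell by 0.81 on the log2 scale (SE 0.14, adjusted p = 0.0406), and the call ended without induced replicates 1 and 2 (adjusted p = 0.0833 and 0.0698). Tnxb, a tenascin gene of connective tissue that acts on collagen fibrils, had 1921 and 2034 in induced cells, against 1236 and 1192 in controls. It rose 1.63-fold (log2 fold change 0.70, SE 0.08, adjusted p = 0.0143), and the call ended without induced replicate 2 (adjusted p = 0.0511). The ratio of Tnxb to Tnc per exon length was 0.335 in each induced library and 0.103 and 0.133 in controls. Those starts lie in GENCODE transcripts of both genes. Exons of Tnc overlap 8030451A03Rik, which had 15 and 28 reads in induced and control cells, and exons of Tnxb overlap the pseudogene Cyp21a2-ps.

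Dpt, the gene of dermatopontin, a small protein that binds decorin and collagen, had 27.2 and 17.6 normalized reads in induced cells, against 298 and 204 in controls. Its mean was 11.2-fold lower (log2 fold change -3.44, SE 0.32, adjusted p = 0.00981). It passed the threshold in all 12 refits in which it was tested, the 1 called gene here that did. At a mean of at least 5 CPM it was not tested, and without the trended prior its adjusted p by limma was 0.0492. Bgn, Ogn and Fbln2 each passed in 12 of 13 refits. Dpt reached the filter through the controls alone, so it could be called only as lower. Fn1, the gene of fibronectin, took the most reads of the 53 genes. It had 117070 and 130411 normalized reads in induced cells and 107104 and 89308 in controls. Both induced libraries lay above both controls, but the change did not pass (log2 fold change 0.34, SE 0.11, adjusted p = 0.182). Sparc, the gene of osteonectin, had 31106 and 31387 in induced cells and 35178 and 33508 in controls (log2 fold change -0.14, adjusted p = 0.295).

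Postn, the gene of periostin, and Thbs1, the gene of thrombospondin 1, came close to the threshold. Postn had 360 and 454 normalized reads in induced cells and 1079 and 710 in controls (log2 fold change -1.11, SE 0.22, adjusted p = 0.0642). In the fits without 1 library its log2 fold change ran from -1.41 to -0.81. Among these fits Postn passed only without control replicate 2, the control nearer the induced libraries. Thbs1 had 4357 and 5046 in induced cells and 3047 and 1990 in controls (log2 fold change 0.93, SE 0.20, adjusted p = 0.0754). Its log2 fold change ran from 0.62 to 1.24 in such fits, and among them Thbs1 passed only without control replicate 1, again the nearer control. In both genes the groups did not overlap and the controls stood further apart than the induced libraries. Thbs2, Thbs3, Spp1, Ecm1 and Matn2 had log2 fold changes of 0.21, 0.03, 0.08, 0.05 and -0.29, with adjusted p of 0.262, 0.931, 0.476, 0.754 and 0.239. Under the filter, the calcification inhibitor gene Mgp had 17 and 20 reads in induced cells and 32 and 46 in controls, and vitronectin (Vtn) had 0 and 7 reads in the groups.

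Of the 5 tested genes of collagen cross-linking enzymes and the collagen chaperone, 0 passed limma's test or limma voom, and 1, Loxl3, had an unadjusted p under 0.05 by limma. Lox, the gene of the lysyl oxidase that starts collagen and elastin cross-links, had 41154 and 40000 normalized reads in induced cells and 40970 and 35739 in controls (log2 fold change 0.08, interval -0.12 to 0.29). Serpinh1, the gene of the collagen chaperone HSP47, had 12994 and 12232 in induced cells and 24529 and 11686 in controls. Its controls differed 2.10-fold and enclosed both induced libraries (log2 fold change -0.43, interval -1.22 to 0.37). Its log2 fold change was -0.96 without control replicate 2 and 0.11 without control replicate 1. Loxl3 averaged 3935 and 4917 normalized reads in induced and control cells (log2 fold change -0.32, adjusted p = 0.0935), Loxl1 5438 and 5903, and Loxl4 2180 and 2230 (adjusted p = 0.571 and 0.841). Loxl2 was under the filter with 24 reads in either group.

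Per exon length, 15 of the 41 tested genes had a mean under 10 RPKM over the 4 libraries, a line drawn after the values were seen. Of these 15 genes, 7 fell and 1, Tnxb, rose. Of the 26 genes above it, 1, Tnc, fell and 4 rose. The shares of all tested genes that rose or fell on each side of this line were not computed. Whether the split is particular to the matrix genes was therefore not tested. Counts are small at the low end: Nid2 had 155 reads in the controls together and Lama2 70 and 217 reads in induced and control cells. Nid2, with 0 reads in induced cells, and Dpt, with 25 and 19, reached the filter through the controls alone. Both could thus enter these counts only as lower in induced cells. The 8 genes that fell took 0.0136% and 0.0147% of all reads in induced libraries and 0.0339% and 0.0248% in controls. The 5 that rose took 0.515% and 0.518% in induced libraries and 0.353% and 0.333% in controls. All 53 genes together took 1.59% and 1.67% of reads in induced libraries and 1.53% and 1.32% in controls, of which Fn1 held 0.358% and 0.399%, against 0.330% and 0.274%.

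**Figure D4:**
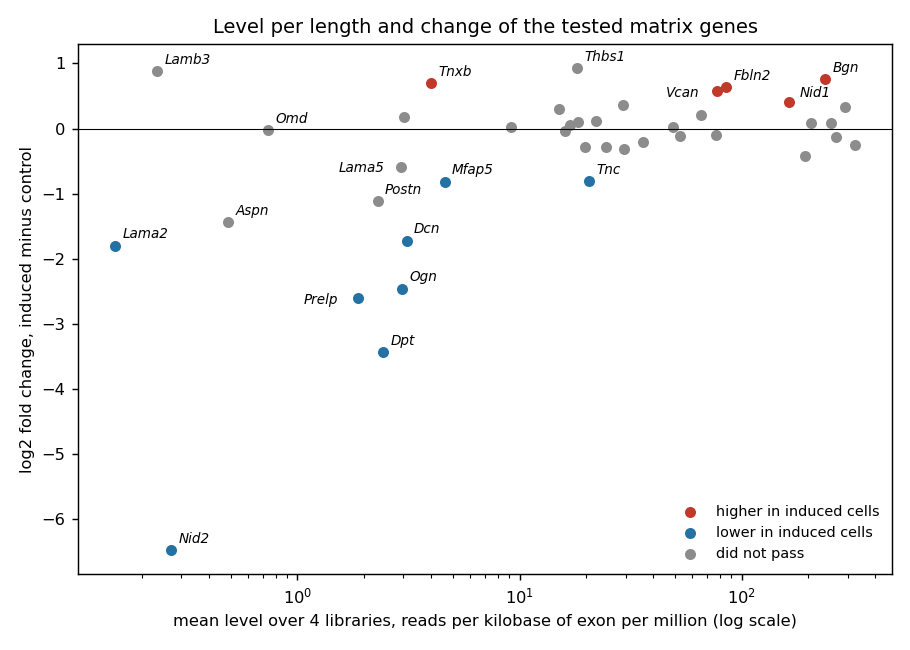
Log2 fold change against the mean level over the 4 libraries (RPKM, log scale) of the 41 tested matrix genes, red for genes that rose, blue for genes that fell and grey for those that did not pass. Of the 8 genes that fell, 7 lie below a level of 10, and of the 5 that rose 4 lie at 77.4 or above. How calls among all tested genes split by level was not computed.

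The controls differed from each other in many of these genes. Control replicate 1 was above control replicate 2 in 34 of the 41 tested genes, and in 7 of the 8 that fell, while this held for 48.5% of all tested genes. The part of this difference in the results was not tested beyond the fits without either control. All 13 called genes kept their direction in those fits, but not all kept their call. Without control replicate 1, 8 of the 13 were kept, Nid1, Nid2, Lama2, Dcn and Mfap5 were lost and Thbs1 was gained. Without control replicate 2, 10 were kept, Nid1, Lama2 and Mfap5 were lost and Lama5, Postn and Serpinh1 were gained.

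Promoter windows were listed for 10 of the 13 called genes (not for Nid2, Dcn and Mfap5). In the 5 that rose the share of G and C in the 250 bases ran from 52.4% to 64.4% (median 62.4%), and in the 5 that fell from 42.0% to 55.6% (median 47.2%), beside a median of 52.0% over 27018 genes. GGGCGG on either strand was present in 4 of the 5 that rose and 1 of the 5 that fell, and in 32.9% of all windows. TATAAA was present in 0 of the 5 that rose and 2 of the 5 that fell, and in 13.0% of all. CCAAT was present in 2 and 1, and in 34.5% of all, and TGANTCA in 1 and 0, and in 6.87% of all. Of the 4 windows with GGGCGG among genes that rose, that of Fbln2 lies wholly within annotated exons of the gene (250 of 250 bases), and the bases after the Vcan start, as after the Bgn start, lay in no GENCODE transcript of the gene. These genes were picked by their change, so the counts are a description with no test.

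Among 19 tested interstitial matrix genes outside the 59, 4 rose and 3 fell, and the median log2 fold change was 0.18. Wisp2, Igfbp7, Ltbp1 and Emilin2 rose 1.87, 1.62, 1.57 and 1.42-fold (adjusted p = 0.0123, 0.00908, 0.0246 and 0.0191). Ltbp1 encodes a protein that stores latent TGF-beta on microfibrils, and Emilin2 a relative of Emilin1. Svep1, a large adhesion protein gene, fell by 1.20 on the log2 scale, and Ctgf and Cyr61, matricellular genes induced by YAP and TGF-beta signalling, fell by 0.67 and 0.64 (adjusted p = 0.0283, 0.0223 and 0.0281). Ctgf had 1788 and 1955 normalized reads in induced cells, against 3135 and 2842 in controls. Exons of Igfbp7 overlap Polr2b, those of Svep1 Gm26889 and those of Ctgf Gm15270.

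Of 22 tested genes of matrix synthesis, the heparan sulfate polymerase gene Ext1 and the prolyl hydroxylase gene P4ha3 rose 1.47 and 1.52-fold, and its relative P4ha2 fell by 0.41 on the log2 scale (adjusted p = 0.0165, 0.0364 and 0.0299). The list's median log2 fold change was 0.01. Of 12 tested receptors, Itgb5, the beta chain of a vitronectin-binding integrin, had 4851 and 4434 normalized reads in induced cells, against 1999 and 2037 in controls, and rose 2.30-fold (adjusted p = 0.00363). Cd47, a receptor of thrombospondin 1, rose 1.42-fold (adjusted p = 0.0260), and the receptors' median was 0.09. Wisp2, Igfbp7 and Itgb5 kept their calls without any 1 library. The calls of Emilin2 (adjusted p = 0.0675), Ltbp1 (0.0693), Cyr61 (0.0724), Ctgf (0.0535), P4ha2 (0.0769), P4ha3 (0.124) and Cd47 (0.0836) ended without induced replicate 1, and those of Ltbp1 (0.0838), P4ha2 (0.124), P4ha3 (0.115) and Ext1 (0.0615) without induced replicate 2. Without control replicate 1 those of Ltbp1, Cyr61, Ctgf, Svep1, P4ha2 and P4ha3 ended (0.0579, 0.0501, 0.0553, 0.0657, 0.0717 and 0.0534), and without control replicate 2 those of Cyr61, P4ha2, P4ha3 and Cd47 (0.0734, 0.0713, 0.0828 and 0.0647). For Col3a1 the call (adjusted p = 0.0309) ended without induced replicates 1 and 2 (0.0848 and 0.0858).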

How the data were processed

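RNA was extracted with Trizol and TruSeq RNA v2 reagents, a chemistry without strand information, gave the libraries, per the labels' protocols. The submitters' processing notes name HISAT, Cufflinks and build mm9, without versions; how reads were counted and scaled is not given in the sources used here. What the authors deposited are log2 values, a unit read from the values since no header states it: undoing the log and its pseudocount of 1 left 100% of the values in each library as whole multiples of 1 step, within a tolerance of 0.01, so whole reads were recovered and the values are log2(normalized reads + 1). The design named limma for such values, so no count model was run and limma voom on the recovered reads was an alternative.

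Fits used limma 3.58.1 in R 4.3.3 with a trended prior and no covariate, two-sided, on the 13276 of 24689 genes whose mean reached 1 CPM. Exon lengths and exon overlaps came from GENCODE M21 (GRCm38) by gene ID for 24591 genes, with no coordinate taken over to mm9; promoter windows came from RefSeq (GRCm38.p6). RPKM were computed from the recovered reads. The fits were tried on simulated counts in which every gene had the same relative spread beyond counting error. That setting is simpler than these data, so it cannot give the error rate of the calls here. Between replicates the chi-square per gene was 12.9 in induced cells and 16.9 in controls, above counting error. The genes and lists were chosen with earlier results of these data known. Values in each library were given for genes past the threshold and for the 2 highest per length of the others in each role, with Postn, Thbs1, Lama5, Lamb1, Lamb3, Aldh1l1, Slc1a3, Eno2, Tubb3 and Btg2 added after their values were seen. Bounds against 0 reads set 3 reads per library and cover counting error only.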

Additional observations from a re-analysis of the deposited data

How the results depend on the processing

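Over 13 refits all 13 called matrix genes kept their direction wherever they were tested. Scaling by library totals and a pseudocount of 8 kept all 13 calls; limma voom lost Prelp (adjusted p = 0.0646), and quantile normalization lost Vcan (0.0511) and added Fn1 (0.0133), the gene with the most reads among them. Without the filter 3 matrix genes rose and 3 fell (100 and 59 of all genes), and without the trend 0 rose and 3 fell (64 and 52 of all genes); these 3 were Nid2, Lama2 and Dpt, and the other adjusted p ran from 0.0526 to 0.144. A mean of at least 5 CPM left 5 falling genes, since Nid2, Lama2 and Dpt were no longer tested, and 3 rose without genes of overlapping exons, where Nid1 and Tnxb were not tested; 6 fell there, Lama5 and Postn among them. Leaving out 1 library at a time gave 2 to 5 matrix genes higher and 4 to 9 lower, and 113 to 204 and 78 to 136 of all genes; such fits have 1 degree of freedom less, and the lone library of its group was assumed to vary like the others. Bgn, Ogn, Prelp, Dpt and Fbln2 kept their calls in all 4. The labels give both groups the same replicate numbers, but the deviations of same-numbered libraries did not run together (correlation -0.095). With the replicate number as a block 3 matrix genes rose (Nid1 and Vcan lost, adjusted p = 0.102 and 0.0641) and 8 fell, and 157 and 104 of all genes. Depth limits the 12 genes under the filter, of which none had over 46 reads in any library, and 2 libraries a group limit all tests.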
